A study of Mus musculus with 23 samples.

Results

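Group 2 innate lymphoid cells (ILC2) activated for days in a dish were compared with ILC2 activated inside the lung, microRNA by microRNA. The comparison takes 8 of the 23 small RNA libraries of the series, 4 of cultured ILC2 and 4 of IL-33 ILC2, chosen by their labels alone. Both groups are wild-type mouse lung cells sorted as positive for CD45, Thy1, CD25 and ST2 and negative for lineage markers and CD4. Cultured ILC2 had spent 10 days in vitro with IL-33, TSLP and IL-7, each given as 10 ng per ml. IL-33 ILC2 came from mice that received 500 ng of IL-33 into the airways over 3 days. Untreated lung ILC2 (n = 4) serve as a baseline. Cultured Th2 cells (n = 4) and OVA-lung Th2 cells (n = 3) give a contrast of culture and in vivo activation in T cells. Cultured Th2 were wild-type CD4 T cells of spleen and lymph nodes, bead-selected and kept 5 days with anti-CD3, anti-CD28, IL-4 and anti-IFNg. OVA-lung Th2 were lung CD4 T cells that carry the Il4 reporter allele Il4tm1LKy, sorted as reporter-positive after alum and ovalbumin sensitization and 3 days of ovalbumin (50 µg) in the airways. Time, cytokines and surroundings all differ between cultured and IL-33 ILC2 and cannot be told apart. The age of the mice is not given. The labels do not tie libraries to individual animals, so a p-value speaks of the spread among these libraries, which may be technical.

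ILC2 are tissue-resident lymphocytes without antigen receptors that answer alarm cytokines of the epithelium, such as IL-33 and TSLP, by making IL-5 and IL-13. MicroRNAs are short RNAs that lower the output of messenger RNAs matched by their seed, the bases 2 to 8 from the 5′ end. In lymphocytes some microRNAs are known to accompany rest (miR-150, miR-342), others activation and division (miR-21a, miR-155, the miR-17-92 cluster). The let-7 family is known for its high level in resting and differentiated cells.

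In the comparison 16 microRNAs passed the threshold, and RefSeq (GRCm38.p6) gives the mature sequence of 15 of them. They are printed because they carry the result, with the seed in capitals. The first set was lower in cultured ILC2.
miR-150-3p: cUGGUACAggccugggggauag
miR-342-3p: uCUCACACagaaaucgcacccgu
miR-342-5p: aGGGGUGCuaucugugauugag
let-7c-5p: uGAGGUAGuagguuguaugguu
let-7b-5p: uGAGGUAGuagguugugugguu

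The second set was higher in cultured ILC2, first miR-34a, then the miR-17-92 cluster and its paralog, then the Dlk1-Dio3 locus.
miR-34a-5p: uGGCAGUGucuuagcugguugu
miR-92a-1-5p: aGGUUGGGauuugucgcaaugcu
miR-18a-3p: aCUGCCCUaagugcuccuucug
miR-106b-3p: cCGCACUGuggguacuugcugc
miR-127-3p: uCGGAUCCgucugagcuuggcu
miR-434-5p: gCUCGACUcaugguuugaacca
miR-379-5p: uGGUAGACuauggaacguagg
miR-134-5p: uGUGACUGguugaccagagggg
miR-541-5p: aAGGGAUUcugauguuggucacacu
miR-409-3p: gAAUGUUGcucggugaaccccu

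Among the tested microRNAs with a sequence in that table, let-7b-5p and let-7c-5p share the seed GAGGUAG with 7 others, and miR-34a-5p shares GGCAGUG with miR-449a-5p. The other 12 printed calls have a seed that no other of them holds. The calls thus spread over many seeds.

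Library totals of the 8 libraries ran from 89673 to 3326475 counts, and IL-33 ILC2 library 2 was the shallowest. There a count of 0 allows up to 33.5 CPM (3 counts, counting error only), against 0.902 to 6.36 CPM in the other 7. CPM are counts scaled to a library total of 1000000. The libraries lie in 4 count tables that hold 1 library per group, and values of 1 microRNA differed widely between tables, so changes are given from a fit with the table (the replicate number) as a block. That fit also scales the libraries by TMM factors, which CPM and shares of counts leave out. In library 2 these factors were 1.51 for cultured and 2.62 for IL-33 ILC2. A direction by CPM or share in that table need not hold after TMM scaling. The abundant miR-21a-5p took 5.562, 24.45, 39.97 and 62.16% of the counts in cultured ILC2 libraries 1 to 4, against 1.879, 9.264, 25.04 and 45.59% in IL-33 ILC2. Cultured ILC2 were higher in each table, and both groups had their lowest share in library 1 and their highest in library 4. No messenger RNA was measured, so the markers of the sort gate could not be checked. The blood cell microRNA miR-142a does not tell ILC2 from other blood cells. Its list made up 1.17, 3.67, 2.23 and 0.155% of the counts in cultured ILC2, against 0.6222, 4.62, 3.398 and 0.5405% in IL-33 ILC2, so both groups held it in every library.

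Of 384 microRNAs tested, 16 passed the threshold (4.17%), with 10 higher (2.6%) and 6 lower (1.56%) in cultured ILC2 than in IL-33 ILC2 (edgeR's quasi-likelihood test, Benjamini-Hochberg adjusted p below 0.05). Scaling by library totals turned the split into 7 higher and 7 lower. Of the 384 changes 202 lay above 0 and 182 below, with a median of 0.15 log2. Without the table as a block no microRNA passed, with 59 at an unadjusted p below 0.05, against 82 with it. With the block, 34 passed in DESeq2 and 21 in limma, which was run on the RPM values. The count of 16 became 10 without IL-33 ILC2 library 2, 3 without IL-33 ILC2 library 4, and 7, 4 and 1 without cultured ILC2 libraries 2, 3 and 4. The call of miR-34a-5p was the one that held with each of the 8 libraries left out in turn.

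**Figure D1:**
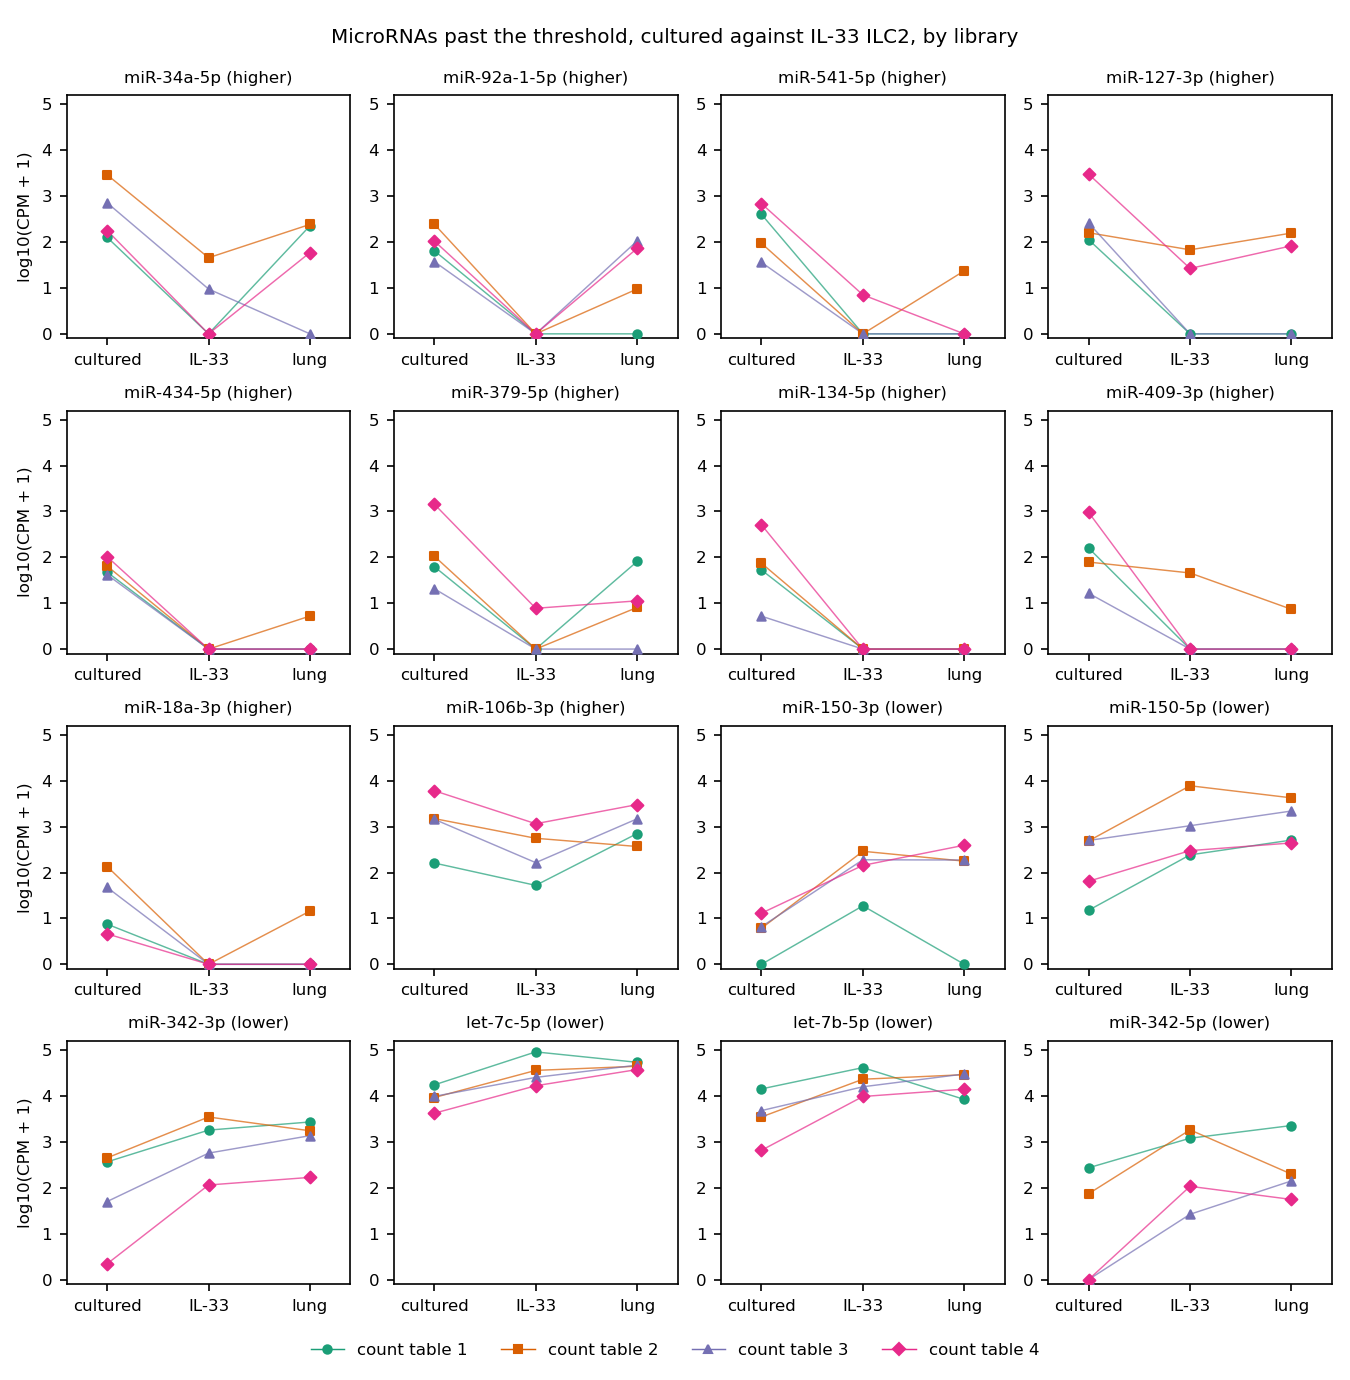
CPM of the 16 microRNAs past the threshold in each library, as log10(CPM + 1), in cultured, IL-33 and untreated lung ILC2. Points are libraries (n = 4 per group) and lines join libraries of 1 count table. The 10 higher ones come first and the 6 lower ones last, and in each panel every table with counts shows the same direction between cultured and IL-33 ILC2.

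Among microRNAs known from resting lymphocytes, 5 of 22 tested were lower in cultured ILC2 (1.56% of all tested microRNAs were). Both arms of miR-150, which restrains the transcription factor Myb in mature lymphocytes, fell, and so did both arms of miR-342, which lies in an intron of the actin regulator gene Evl. miR-150-5p had 14.1, 489, 500 and 63.7 CPM in cultured ILC2 libraries 1 to 4, against 242, 7795, 1048 and 300 CPM in IL-33 ILC2. In every table the cultured library was the lower one, although the groups overlap across tables. The change was −2.45 ± 0.56 log2 (± an approximate SE derived from the F-test, n = 4 each, adjusted p = 0.0111 in edgeR). Its other arm miR-150-3p (chromosome 7) had 0, 5.111, 5.62 and 12.02 CPM in cultured ILC2, against 17.8, 290, 189 and 142 CPM in IL-33 ILC2. Those groups do not overlap, which 1.56% of all tested microRNAs showed in this direction, and the change was −4.71 ± 1.05 (adjusted p = 0.0111 in edgeR).

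miR-342-3p (chromosome 12) had 366.1, 447.9, 49.18 and 1.202 CPM in cultured ILC2, against 1806, 3490, 569 and 114 CPM in IL-33 ILC2. The change was −2.92 ± 0.79 log2 (adjusted p = 0.0251 in edgeR), and the cultured library was lower in 4 of 4 tables, as for 12% of all tested microRNAs. miR-342-5p, from the same hairpin, had 272, 73.4, 0 and 0 CPM in cultured ILC2, against 1202, 1829, 25.5 and 107 CPM in IL-33 ILC2. It passed more narrowly (adjusted p = 0.0485 in edgeR), and 2 of its cultured libraries hold no count.

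In untreated lung ILC2 miR-150-5p stood at 509.9, 4248, 2194 and 441 CPM and miR-342-3p at 2717, 1747, 1366 and 167.5 CPM. The other arms had 0, 176.3, 186.7 and 393.1 CPM (miR-150-3p) and 2273, 197.5, 140.1 and 54.69 CPM (miR-342-5p) there. Side by side, miR-150-5p differed from lung ILC2 by −2.09 log2 in cultured ILC2 and by 0.36 in IL-33 ILC2, and miR-342-3p by −2.35 and 0.57. miR-150-3p differed by −3.79 in cultured ILC2 and by 0.93 in IL-33 ILC2, and miR-342-5p by 1.33 in IL-33 ILC2. The values against lung ILC2 share its libraries, and the difference between cultured and IL-33 ILC2 is the one tested above. With 1 library left out at a time, the change of miR-150-5p ran from −2.91 to −1.70 and missed the threshold in 4 fits, those without cultured library 1, 2 or 4 or IL-33 library 4. miR-150-3p ran from −5.02 to −3.97 and missed it in 2 fits, without cultured library 2 or 4. miR-342-3p ran from −3.29 to −2.32 and missed it when any cultured library or IL-33 library 4 was left out. miR-342-5p kept its call only without IL-33 ILC2 library 3.

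The list of microRNAs known from resting lymphocytes had 22 of 28 entries tested, of which 0 were higher. The 5 lower ones were the 4 arms above and let-7b-5p. None of these 5 passed when only the 8 compared libraries were fitted (adjusted p from 0.1 to 0.143 in edgeR). The median over the 22 lay below 0 under each of the 5 scalings (−1.16 to −0.84 log2 with the 4 others), while that over all tested microRNAs was 0.15. Summed, the list took 3.66, 6.12, 5.22 and 2.25% of the counts in cultured ILC2, against 7.39, 9.11, 8.41 and 4.74% in IL-33 ILC2 and 6.44, 12.5, 11.3 and 10.9% in lung ILC2. By these shares of library totals the cultured library was lower in every table, also when miR-21a-5p was taken out of the totals. With the TMM factors of library 2 (1.51 in cultured, 2.62 in IL-33 ILC2) the order in that table turns round. The direction in every table thus rests on scaling by totals. Members that did not pass include miR-26a-5p (−1.05, adjusted p = 0.277 in edgeR) and miR-101a-3p (0.14, adjusted p = 0.961).

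The miR-181 family, known for tuning antigen receptor signaling in developing T cells, had 0 of 6 tested members past the threshold. All 6 fitted changes lay below 0, with a median of −1.94 log2. Its summed share was 0.0279, 0.179, 0.135 and 0.0666% in cultured ILC2, against 0.137, 0.658, 0.266 and 0.391% in IL-33 ILC2. Its most abundant member was miR-181a-5p, at −1.25 ± 0.60 log2 (adjusted p = 0.212 in edgeR). The libraries of the same table thus differed in 1 direction in the sum, while no single member passed.

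**Figure D2:**
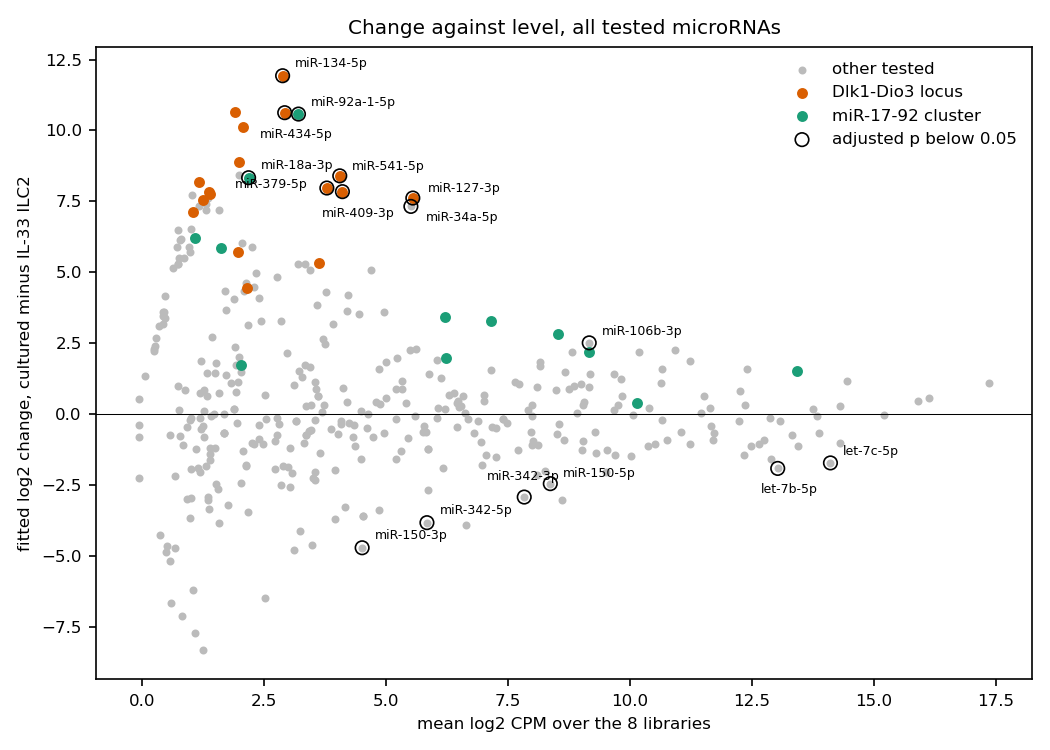
Fitted log2 change (cultured minus IL-33 ILC2, y axis) against mean log2 CPM over the 8 libraries (x axis) for the 384 tested microRNAs. Rings mark the 16 past the threshold, orange the Dlk1-Dio3 locus and green the miR-17-92 cluster. Fitted changes of microRNAs with no counts in 1 group depend on the prior count and are not sizes. The lower calls are found from low to high levels, and the higher calls other than miR-106b-3p at low levels.

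Within the let-7 family, microRNAs that share a seed had changes on both sides of 0, and 2 of them fell. let-7c-5p had 17500, 9278, 9837 and 4217 CPM in cultured ILC2, against 91630, 36190, 25460 and 16740 CPM in IL-33 ILC2. Each cultured library was far below its partner in the table, and across tables the groups overlap by 1 library. The change was −1.72 ± 0.50 log2 (adjusted p = 0.0485 in edgeR, n = 4 each). let-7b-5p had 14300, 3501, 4814 and 656 CPM in cultured ILC2, against 41620, 23250, 15910 and 9767 CPM in IL-33 ILC2, a change of −1.91 ± 0.57 (adjusted p = 0.0485 in edgeR). Lung ILC2 held 54340, 44570, 47150 and 37750 CPM of let-7c-5p.

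let-7a-5p had 46270, 41380, 43340 and 16520 CPM in cultured ILC2, against 42080, 43260, 49470 and 32710 CPM in IL-33 ILC2 (−0.02 ± 0.47, adjusted p = 1 in edgeR). let-7i-5p, the most abundant member, was at 0.59 ± 0.45 (adjusted p = 0.501) and let-7f-5p at 0.46 ± 0.45 (adjusted p = 0.631). At the other end was miR-98-5p, with 16410, 5530, 4919 and 793.1 CPM in cultured ILC2, against 2833, 1305, 2232 and 376.5 CPM in IL-33 ILC2. It was above its partner in every table but missed the threshold (1.87 ± 0.66, adjusted p = 0.104 in edgeR). The fitted changes of the 9 tested microRNAs with the seed GAGGUAG thus ran from −1.91 to 1.87. The family as a whole had 17 of 22 entries tested, 0 higher and 2 lower (1.56% of all tested were lower), with a median of 0.12 that turned to −0.07, −0.24 and −0.05 with DESeq2 size factors, library totals and the TMMwsp variant of TMM.

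The family members differ outside the seed, by positions counted from 1 at the 5′ end of let-7a-5p.
let-7a-5p: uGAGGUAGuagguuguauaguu
miR-98-5p: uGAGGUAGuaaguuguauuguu

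Against let-7a-5p, let-7c-5p carries A19G, let-7b-5p A17G and A19G, let-7f-5p G12A, let-7e-5p U9G, and miR-98-5p G11A and A19U. With a single base between several members, counts can be split between them in mapping, and how the authors assigned such reads is not given in the sources used here. let-7b lies at chr15:85707325-85707346 and 1 of the copies of let-7c at chr15:85706616-85706637, both on the plus strand and in exons of the long noncoding RNA Lncppara. Another copy of let-7c, at chr16:77599672-77599693, lies in an intron of Mir99ahg, which also holds miR-99a. miR-99a-5p did not pass (−0.67 ± 1.57, adjusted p = 0.901 in edgeR). The call of let-7c-5p held without IL-33 ILC2 library 2 and was lost without any 1 of the other 7 libraries (−1.98 to −1.37). For let-7b-5p (−2.20 to −1.40) it held in the fits without cultured library 1 and without IL-33 library 2, and in no other of the 8.

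**Figure D3:**
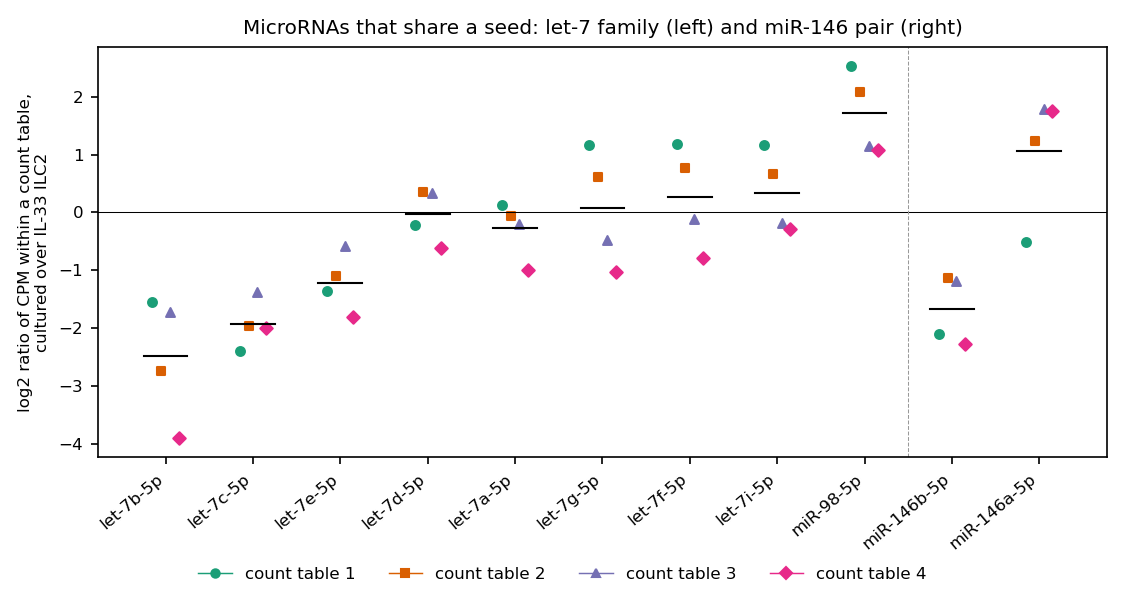
Log2 ratio of CPM, cultured over IL-33 ILC2, within each count table (points) and its mean (bars) for 9 microRNAs that share the let-7 seed and for the miR-146 pair. In let-7b-5p and let-7c-5p all 4 tables lie below −1.3, in miR-98-5p all 4 lie above 1, and let-7a-5p, let-7d-5p, let-7f-5p, let-7g-5p and let-7i-5p lie on both sides of 0.

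miR-34a-5p, a microRNA that p53 induces and that is known to slow the cell cycle, was higher in cultured ILC2. It had 126, 2927, 717 and 178 CPM in cultured ILC2, against 0, 44.6, 8.49 and 0 CPM in IL-33 ILC2. The groups do not overlap, which 3.12% of tested microRNAs showed in this direction. The adjusted p was 0.0111 in edgeR, and it stayed past the threshold with each library left out and under each of 4 other scalings, but was 0.17 without the table as a block. With counts in 2 of 4 IL-33 ILC2 libraries, no fitted size is given. Lung ILC2 had 226, 242, 0 and 58.1 CPM, so 3 of 4 untreated libraries held it as well. miR-34a lies on chromosome 4. miR-34c-5p, of the same family (adjusted p = 0.866 in edgeR), had 97.5, 92.6, 0 and 16.8 CPM in cultured ILC2, against 103, 66.9, 0 and 6.75 CPM in IL-33 ILC2.

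The miR-17-92 cluster, which is transcribed as Mir17hg on chromosome 14 and drives lymphocyte division, had 2 of 12 tested entries higher in cultured ILC2 (2.6% of all tested were) and 0 lower. Both are the minor arms of their hairpins. miR-92a-1-5p had 63.9, 245, 36.5 and 104.5 CPM in cultured ILC2 and no count in any IL-33 ILC2 library (adjusted p = 0.0111 in edgeR), at least 144.5-fold higher against a floor of 3 counts over the group. miR-18a-3p had 6.498, 134.4, 46.37 and 3.605 CPM in cultured ILC2 and no count in IL-33 ILC2 (adjusted p = 0.0485 in edgeR), at least 71.7-fold higher. Both bounds use pooled counts and moved with single libraries, which were left out in turn as a choice made after seeing the data. They were 59.2-fold and 14.45-fold without cultured ILC2 library 2, and 60.44-fold and 29.97-fold without IL-33 ILC2 library 4.

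The major arms of these and other hairpins of the cluster are much more abundant and did not pass. miR-20a-5p had 269.7, 9440, 2858 and 555.1 CPM in cultured ILC2, against 0, 1294, 712.9 and 99.19 CPM in IL-33 ILC2 (2.84 ± 0.91 log2, adjusted p = 0.0693 in edgeR). It was higher in every table, as was miR-18a-5p (3.29 ± 1.21, adjusted p = 0.126). miR-92a-3p, the most abundant member, had 2311, 24600, 21410 and 63600 CPM in cultured ILC2, against 384.7, 28370, 10710 and 22870 CPM in IL-33 ILC2. Here 3 of 4 tables had the cultured library higher (1.51 ± 0.49, adjusted p = 0.0732 in edgeR). miR-19b-3p stood at 2.20 ± 0.82 (adjusted p = 0.126), miR-19a-3p at 3.43 ± 1.30 (adjusted p = 0.137) and miR-17-5p at 0.38 ± 0.59 (adjusted p = 0.839).

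All 12 fitted changes of the cluster list lay above 0, with a median of 3.06 log2, and from 2.82 to 3.15 under 4 other scalings. They include minor arms with counts in 0 (miR-92a-1-5p, miR-18a-3p) or 1 (miR-20a-3p) IL-33 ILC2 library, whose fitted changes are not sizes. With bounds against the floor in place of changes for arms without IL-33 ILC2 counts, the median was again 3.06. The summed share of its 16 entries was 0.703, 4.86, 2.94 and 6.49% in cultured ILC2, against 0.289, 3.43, 1.35 and 2.32% in IL-33 ILC2. Lung ILC2 held 0.867, 3.48, 6.11 and 4.90%. The cultured library was above the IL-33 library in each table, and the IL-33 library was below the lung library in each. The list also holds miR-92a-2-5p and reads of miR-19b-3p and miR-92a-3p from second gene copies elsewhere.

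Of the paralog clusters of miR-17-92, 1 of 11 tested entries was higher (2.6% of all tested were) and 0 lower. This was miR-106b-3p, from an intron of the replication licensing gene Mcm7 on chromosome 5. It had 160, 1499, 1447 and 6074 CPM in cultured ILC2, against 51.6, 558, 163 and 1159 CPM in IL-33 ILC2 (2.51 ± 0.76 log2, adjusted p = 0.0485 in edgeR). The call was lost under all 4 other scalings. Its other arm miR-106b-5p was at 0.63 ± 0.62 (adjusted p = 0.642), and miR-25-3p of the same cluster at 0.82 ± 0.51 (adjusted p = 0.351).

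miR-92a-1-5p missed the threshold when library 4 of either group was left out. The call of miR-18a-3p held only without cultured ILC2 library 1 among the 8 left-out libraries and was lost with library totals. That of miR-106b-3p held only without cultured ILC2 library 1 (2.26 to 3.23 log2 over the 8 fits).

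MicroRNAs known to rise when T cells are activated took a larger share of the counts in culture than in vivo. The list has 33 of 43 entries tested, with 2 higher (2.6% of all tested were) and 0 lower, and both calls are the miR-17-92 arms already described. Its median was 1.99 log2, against 0.15 over all tested. The 33 include all 12 tested entries of the miR-17-92 cluster, so this median is not separate from that of the cluster. The summed share was 12.01, 38.22, 47.42 and 70.6% in cultured ILC2, against 11.7, 16.8, 28.4 and 49.1% in IL-33 ILC2. In libraries 2 to 4 of both groups most of it was miR-21a-5p, while in library 1 it was 5.562 of 12.01% in cultured ILC2 and 1.879 of 11.7% in IL-33 ILC2. Without miR-21a-5p in the list and the totals, 3 of 4 tables had the cultured library higher.

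Single activation microRNAs did not pass. miR-21a-5p, at 55620, 244500, 399700 and 621600 CPM in cultured ILC2 against 18790, 92640, 250400 and 455900 CPM in IL-33 ILC2, was above its partner in every table (1.10 ± 0.44 log2, adjusted p = 0.158 in edgeR). miR-155-5p, which ILC2 and Th2 cells need for full type 2 responses, had 366.1, 20190, 3099 and 614 CPM in cultured ILC2, against 513.5, 3825, 969.6 and 129.6 CPM in IL-33 ILC2. It was higher in 3 of 4 tables, and the spread between tables was wide (2.17 ± 1.20, adjusted p = 0.292 in edgeR).

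The miR-146 pair, whose members share a seed and damp NF-kB signaling through Traf6 and Irak1, had values on opposite sides. The mature forms differ by G18A and U21C, counted along miR-146a-5p.
miR-146a-5p: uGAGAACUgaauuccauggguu
miR-146b-5p: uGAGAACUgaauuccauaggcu

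miR-146a-5p had 46870, 54730, 34470 and 12300 CPM in cultured ILC2, against 66660, 23260, 10050 and 3674 CPM in IL-33 ILC2 (1.16 ± 0.52 log2, adjusted p = 0.185 in edgeR), higher in 3 of 4 tables. miR-146b-5p had 6163, 4565, 2335 and 1068 CPM in cultured ILC2, against 26370, 9970, 5317 and 5139 CPM in IL-33 ILC2 (−1.43 ± 0.62, adjusted p = 0.185), lower in 4 of 4 tables. Neither passed.

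The Dlk1-Dio3 locus is an imprinted region of chromosome 12 whose many microRNAs are expressed from the maternal copy and are known from embryonic, stem and neural cells. The 76 of its 79 entries with a RefSeq position span chr12:109563710-109747949. Cultured ILC2 libraries 1 to 4 held 1434, 4150, 394 and 6900 counts of the 79 entries, and 30, 61, 11 and 36 entries above 0. IL-33 ILC2 held 8, 12, 0 and 65 counts and 1, 3, 0 and 5 entries. As a share of all counts this was 0.1553, 0.1248, 0.05536 and 0.8291% in cultured ILC2, against 0.00159, 0.0134, 0 and 0.00439% in IL-33 ILC2 and 0.00801, 0.0313, 0 and 0.0130% in lung ILC2. The lowest cultured library was above the highest IL-33 and lung libraries, and cultured library 4 was far above the others.

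Of the 79 entries 17 were tested and 6 of these were higher in cultured ILC2 (2.6% of all tested microRNAs were). The filter on low counts passed entries mostly through the cultured libraries, so the count of members called is not a measure apart from the sum. miR-127-3p, the most abundant, had 112, 159, 258.5 and 3022 CPM in cultured ILC2, against 0, 66.9, 0 and 25.6 CPM in IL-33 ILC2 (adjusted p = 0.0209 in edgeR). miR-541-5p had 401, 92.9, 35.1 and 688.5 CPM in cultured ILC2, against 0, 0, 0 and 6.07 CPM in IL-33 ILC2 (adjusted p = 0.0111 in edgeR). miR-379-5p had 61.73, 104.9, 19.67 and 1440 CPM in cultured ILC2, against 0, 0, 0 and 6.75 CPM (adjusted p = 0.0251 in edgeR). In all of these the groups do not overlap, which 3.12% of all tested microRNAs showed in this direction. A count of 0 in IL-33 ILC2 library 2 allows up to 33.5 CPM. That is above the lowest cultured value of miR-379-5p and just below that of miR-541-5p, so for miR-379-5p the lack of overlap is not settled.

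miR-434-5p had 46.6, 63.4, 40.8 and 102 CPM in cultured ILC2 and no count in IL-33 ILC2 (adjusted p = 0.0235 in edgeR), at least 53.9-fold higher against a floor of 3 counts over the group. miR-134-5p had 52.0, 73.4, 4.22 and 509.5 CPM in cultured ILC2 and no count in IL-33 ILC2 (adjusted p = 0.0347 in edgeR), at least 105-fold higher. Without IL-33 ILC2 library 4 these bounds were 22.56-fold for miR-434-5p and 44.07-fold for miR-134-5p, and without cultured ILC2 library 4 that of miR-134-5p was 50.49-fold. Without cultured ILC2 library 2 it was 163.5-fold. miR-409-3p overlapped, with 158, 77.9, 15.5 and 949 CPM in cultured ILC2 against 0, 44.6, 0 and 0 CPM in IL-33 ILC2 (adjusted p = 0.0485 in edgeR). miR-127 and miR-434 lie at the proximal end of the span, at chr12:109592888-109592909 and chr12:109594528-109594549. miR-379, miR-134, miR-541 and miR-409 lie between 109709065 and 109743225, the last 3 within the noncoding RNA Mirg. Members from both ends of the span thus passed.

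The calls leaned on cultured ILC2 libraries 3 and 4. Each of the 6 was lost without either of them. miR-541-5p was also lost without cultured ILC2 library 1, miR-127-3p without IL-33 ILC2 library 4, and miR-434-5p without IL-33 ILC2 library 2 or 4. miR-379-5p was lost without any IL-33 library but the third, and miR-134-5p without these or cultured library 2. miR-409-3p was lost without cultured library 1, without any IL-33 library but the second, and with DESeq2 size factors or library totals, with or without miR-21a-5p.

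**Figure D4:**
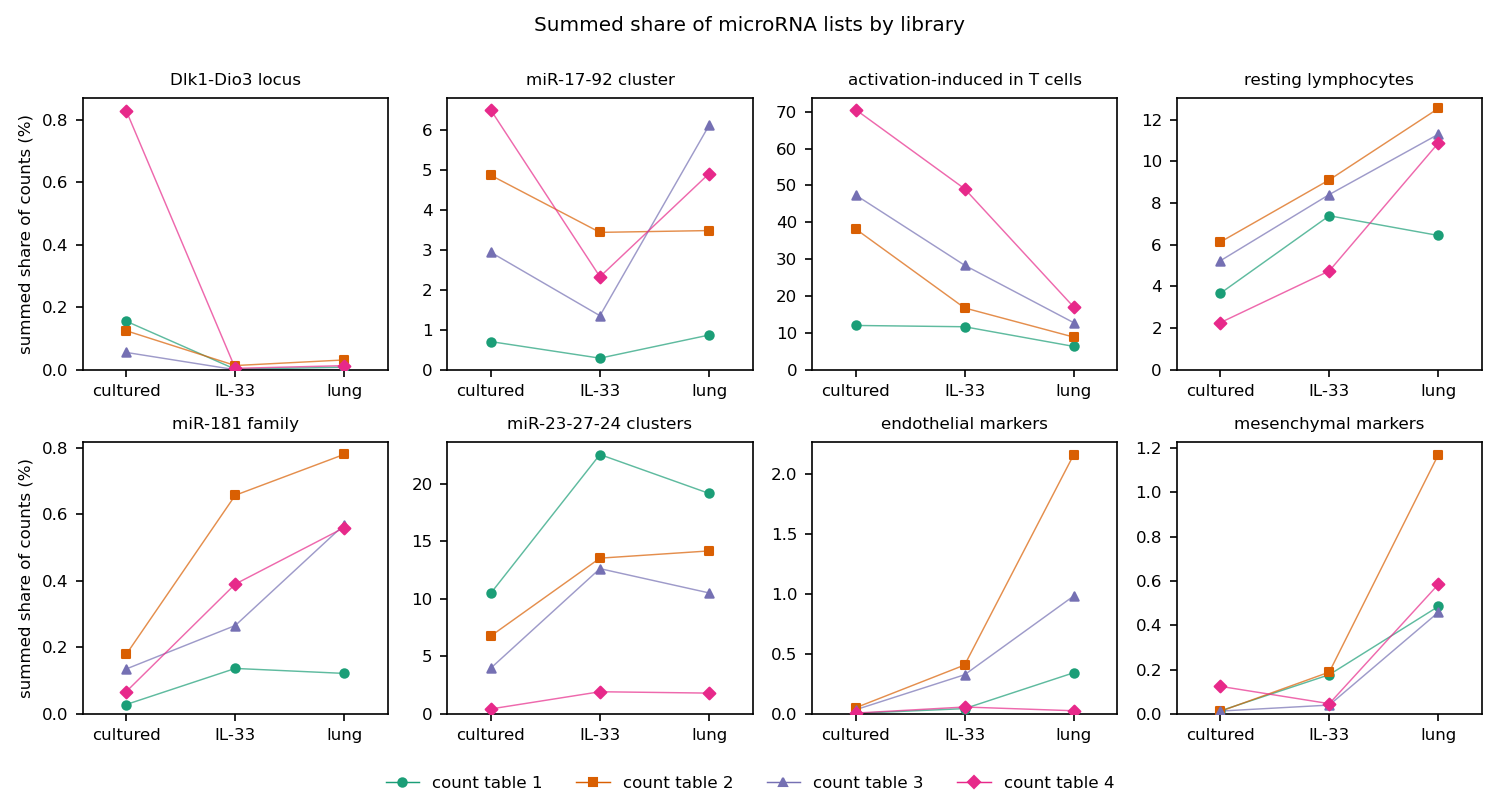
Summed share of the counts (%) of 8 microRNA lists in each cultured, IL-33 and lung ILC2 library (points, n = 4 per group), with lines joining libraries of 1 count table. The Dlk1-Dio3 locus is highest in cultured ILC2, at 0.05536 to 0.8291%, and resting lymphocyte, miR-181 and endothelial lists are lower in cultured than in IL-33 ILC2 in every table. Shares are of library totals, without TMM scaling.

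Among the other families nothing passed. The miR-23/27/24 clusters, known to restrain type 2 cytokine programs in T cells, took 10.5, 6.77, 3.98 and 0.424% of the counts in cultured ILC2, against 22.5, 13.5, 12.6 and 1.92% in IL-33 ILC2. The cultured library was lower in each table, and 0 of 11 tested members passed. miR-24-3p was at −1.02 ± 0.41 log2 (adjusted p = 0.162 in edgeR) and miR-27a-3p at −1.59 ± 0.63 (adjusted p = 0.158). The miR-30 family took 0.321, 2.44, 1.70 and 1.58% in cultured ILC2, against 0.769, 4.78, 3.33 and 3.52% in IL-33 ILC2, with 0 of 11 past the threshold.

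The cluster of miR-99b, let-7e and miR-125a had 0 of 6 members past the threshold, and its sum was lower in cultured ILC2 in 4 of 4 tables. The miR-15-16 (0 of 10), miR-29 (0 of 5) and miR-183-96-182 (0 of 4) groups and the Sfmbt2 locus (0 of 36) had no call. Of the NF-kB-responsive list 0 of 15 passed.

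Markers of other cells moved in part with the groups. The endothelial list, mainly miR-126a-3p, took 0.00379, 0.0502, 0.0336 and 0.00613% of the counts in cultured ILC2, against 0.0432, 0.407, 0.326 and 0.0568% in IL-33 ILC2 and 0.342, 2.16, 0.983 and 0.0256% in lung ILC2. It was lower in cultured ILC2 in 4 of 4 tables, with 0 of 2 tested entries called, and miR-126a-3p missed the threshold (−3.02 ± 0.94 log2, adjusted p = 0.0571 in edgeR). The mesenchymal list, mainly miR-143-3p, took 0.0132, 0.0111, 0.0124 and 0.124% in cultured ILC2, against 0.177, 0.189, 0.0395 and 0.0459% in IL-33 ILC2, with 0 of 7 called. Libraries 4 ran the other way through miR-143-3p (1199 CPM in cultured against 275.3 in IL-33 ILC2). There miR-199a-3p and miR-199b-3p were lower in the cultured library (each 21.63 against 77.6 CPM). Their mature sequences and their CPM are identical, so they are not separate markers. Lung ILC2 held 0.485, 1.17, 0.459 and 0.585% of the mesenchymal list, with 0.00801, 0.0313, 0 and 0.0130% of Dlk1-Dio3 counts. Cultured library 4 also held the most Dlk1-Dio3 RNA, and a link between the 2 lists was not tested.

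The myeloid marker miR-223-3p had 0, 20.1, 18.3 and 0 CPM in cultured ILC2, against 0, 44.6, 87.0 and 12.8 CPM in IL-33 ILC2. The erythroid list ranged from 0.0367 to 0.209% in cultured ILC2 and from 0 to 0.568% in IL-33 ILC2, and the epithelial list from 0.00445 to 0.0152% and from 0.0087 to 0.0479%. Ciliated epithelium markers ranged from 0.00168 to 0.0105% in cultured ILC2 and from 0 to 0.0103% in IL-33 ILC2. Liver or muscle markers were higher in cultured ILC2 in 4 of 4 tables (0.00534 to 0.0311%, against 0.000607 to 0.0151% in IL-33 ILC2). The part of these cells in the differences between the groups was not tested. In sorted populations, fewer cells of a type and less RNA per cell cannot be told apart.

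Cultured Th2 against OVA-lung Th2 gives a contrast of culture and in vivo activation in T cells. Unlike the ILC2 groups, these 2 groups also differ in tissue of origin, genotype and way of selection. A difference between the ILC2 and Th2 contrasts therefore cannot be assigned to the lineage. The difference of the 2 contrasts passed for 21 of the 384 microRNAs tested (5.47%), 18 higher (4.69%) and 3 lower (0.781%). Here higher means that the change from in vivo to culture was more positive in ILC2. miR-146a-5p had the smallest adjusted p of these, with a difference of 4.78 ± 0.77 log2 (adjusted p = 8.13e-05 in edgeR). In T cells it had 974, 1316, 797 and 46.2 CPM in cultured Th2, against 16020, 19970 and 12720 CPM in OVA-lung Th2 (−3.62 ± 0.58), while in ILC2 the change was 1.16 ± 0.52. Every cultured Th2 library was below every OVA-lung Th2 library. Without the table as a block it missed the threshold (adjusted p = 0.0759), and over all alternatives the adjusted p ran from 6.49e-09 to that value.

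miR-210-3p, which hypoxia induces through HIF-1, differed the other way, by −5.07 ± 1.24 log2 (adjusted p = 0.0117 in edgeR). It had 1736, 1491, 840 and 133 CPM in cultured ILC2, against 325, 435, 683 and 26.3 CPM in IL-33 ILC2, and 18750, 15030, 5640 and 333 CPM in cultured Th2, against 374, 334 and 11.8 CPM in OVA-lung Th2. The change was 1.49 ± 0.80 in ILC2 and 6.56 ± 1.10 in Th2. The adjusted p ran from 0.0015 to 0.262 over the alternatives, the last without the block, and was 0.0699 with limma.

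miR-103-3p (−2.69 ± 0.75 log2, adjusted p = 0.0262 in edgeR) and miR-24-3p (−2.14 ± 0.62, adjusted p = 0.0271) also had a more negative change in ILC2. In ILC2 the changes were −1.04 ± 0.49 and −1.02 ± 0.41, and in Th2 1.65 ± 0.56 and 1.12 ± 0.46. The cultured library was the lower one in all 4 tables in ILC2 and the higher one in all 3 shared tables in Th2. Both missed the threshold when OVA-lung Th2 library 2 (adjusted p = 0.125 and 0.187) or 3 (0.0694 and 0.0897) or cultured Th2 library 1 (0.0963 and 0.0511) was left out. They also missed it without the block (0.685 and 0.836), with library totals (0.0914 and 0.132) and in limma (0.178 and 0.194). miR-24-3p was lost without IL-33 ILC2 library 3 as well (0.0696).

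Of the 18 higher differences 15 belong to the Dlk1-Dio3 locus, and these rest on 1 library. OVA-lung Th2 library 2 held 0.528% of its counts there (1438 counts), while OVA-lung Th2 libraries 1 and 3 held 0 counts and cultured Th2 libraries 233, 32, 0 and 17 counts. Without OVA-lung Th2 library 2 the count fell to 2 higher and 1 lower, with 0 of the locus. That library also held the largest mesenchymal share among OVA-lung Th2, 0.714% against 0.00786 and 0.0495%. The other 2 higher differences outside the locus were miR-184-3p (adjusted p = 0.00224 in edgeR) and miR-1a-3p (adjusted p = 0.0145). Both were low on average over the 4 groups and are named here after their values were seen. miR-184-3p had 65.5, 323 and 0 CPM in OVA-lung Th2 and 0 in every cultured Th2 library. miR-1a-3p had 0, 4310 and 0 CPM in OVA-lung Th2, so its difference rests on library 2 as well. The count was 9 without cultured ILC2 library 4, 33 without OVA-lung Th2 library 1 and 10 without cultured Th2 library 2.

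**Figure D5:**
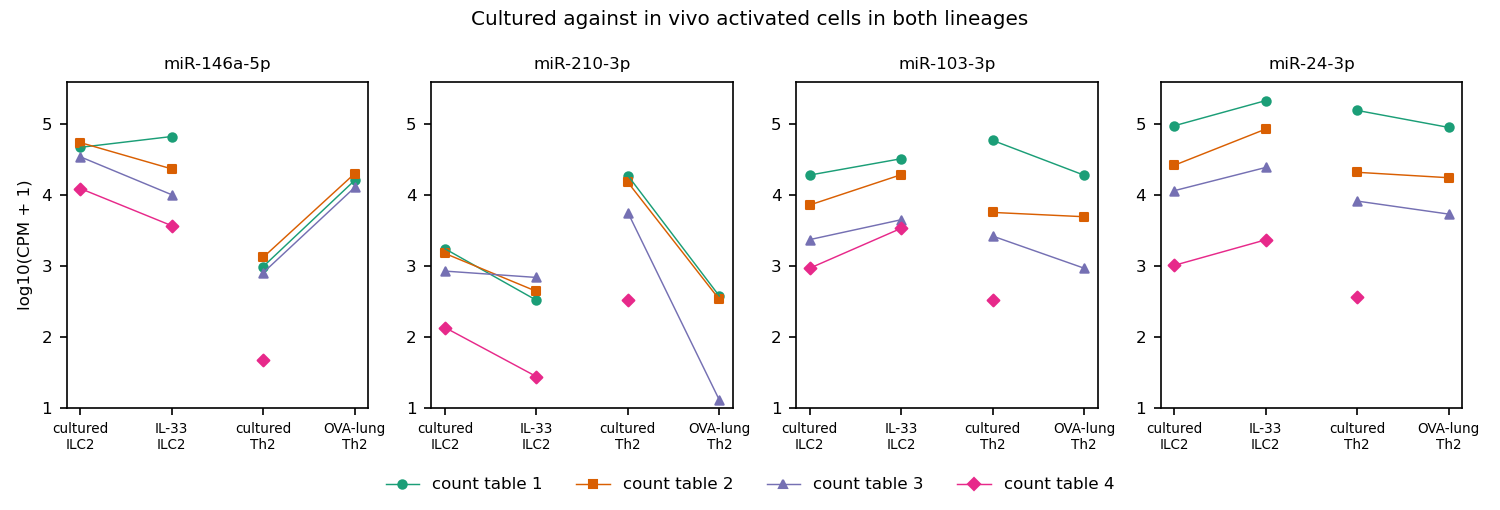
CPM of the 4 microRNAs named for the difference between lineages, as log10(CPM + 1), in cultured and IL-33 ILC2 (n = 4 each) and in cultured Th2 (n = 4) and OVA-lung Th2 (n = 3). Lines join libraries of 1 count table, and the fourth table has no OVA-lung Th2 library. miR-146a-5p is higher in cultured ILC2 in 3 of 4 tables and lower in cultured Th2 in all 3 shared tables.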

How the data were processed

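Expected counts per microRNA, which need not be whole, were deposited by the authors in 4 tables, each with 1 library per group except the fourth, which has no OVA-lung Th2 library. A table of RPM (reads per column sum of 1000000) was deposited as well, and 6 columns of group averages in it were not used. The build mm10 and DESeq2 are named in the submitters' processing notes. The names of the count tables hold the term exceRpt. For trimming, alignment and annotation, the tools and versions are not stated in the labels. Entries that 1 table lacks were taken as 0 in it. The column of cultured ILC2 library 4 is misspelled in its table and was matched by the rest of its name.

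Expected counts were rounded and all 23 libraries fitted once in edgeR 4.0.16 (R 4.3.3): TMM scaling, filterByExpr by group, which left 384 microRNAs, the replicate number (count table) as a block, and quasi-likelihood F-tests with Benjamini-Hochberg adjustment, called below 0.05. The procedure was tested on simulated data that held no effect of the count table, so that test does not cover the block. The difference between lineages is (cultured ILC2 minus IL-33 ILC2) minus (cultured Th2 minus OVA-lung Th2). A fitted size is given where the lower group has counts in at least 3 of 4 libraries. Each ± value is the absolute change divided by the square root of its F statistic. It is an approximate SE that uses the spread estimated over all 23 libraries, not the spread of 1 group. Alternatives were the fit without the block, 4 other scalings, filters, the 8 libraries alone, DESeq2 1.42.0, limma 3.58.1 on log2(RPM + 1) and leaving out libraries. Positions and sequences are RefSeq's on GRCm38.p6, hosts GENCODE's.

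The labels tie each replicate number to 1 count table, which pairs the libraries. Deviations from the group means, over 204 microRNAs, had a correlation over 0.1 for 51 of 55 same-number pairs (−0.05 to 0.74, median 0.37), with a median of −0.17 between numbers. Cultured and IL-33 ILC2 of the same number correlated at 0.55, 0.37, 0.40 and 0.62.

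Named microRNAs were calls in 1 direction in all tables whose log2 CPM averaged 6 or more, the 10 of smallest p in each direction, up to 4 members of each list, the 5 most abundant of each group, the other arms, markers, and miR-21a, miR-146a, miR-155 and miR-150. Calls outside the rule (miR-34a-5p, miR-134-5p and miR-409-3p) and members given to complete a family were named after their values were seen. The members, lists and tests were chosen with earlier results of these data known.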

Additional observations from a re-analysis of the deposited data

Results flagged for a closer look

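In 6 of 171 groups of 4 libraries checked, 1 library stood apart from the other 3 by Dixon's criterion, and chance flags about 1 in 20 groups. In cultured ILC2, library 1 was high in miR-375-3p (gap over range 0.866) and in let-7f-5p (0.842), and library 4 was low in let-7a-5p (0.891) and miR-106b-5p (0.852) and high in miR-143-3p (0.845). In IL-33 ILC2, library 1 was low in miR-146b-3p, at 0 CPM (0.978).

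The change between culture and in vivo activation differed between ILC2 and Th2 for miR-146a-5p (4.78 log2), miR-210-3p (−5.07), miR-103-3p (−2.69) and miR-24-3p (−2.14), each by the test of the difference itself (edgeR, adjusted p = 8.13e-05, 0.0117, 0.0262 and 0.0271). Without the table as a block none of them passed (adjusted p = 0.0759, 0.262, 0.685 and 0.836 in edgeR). The Th2 groups also differ in tissue, genotype and way of selection, so these differences cannot be assigned to the lineage.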

How the results depend on the processing

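The 16 calls between cultured and IL-33 ILC2 became 0 with no replicate block, 6 without a filter on low counts, 7 with only the 8 libraries fitted and 34 with DESeq2. Leaving out 1 library or 1 count table gave 0 to 22 calls, and the 0 came without the fourth table. The 21 differences between lineages became 16 with no replicate block and 3 to 33 with 1 library left out. DESeq2 size factors, library totals, TMMwsp and totals without miR-21a-5p gave 14, 14, 16 and 14 calls between cultured and IL-33 ILC2, of which 14, 13, 15 and 14 are among the 16. The medians of all changes were 0.08, −0.15, 0.02 and 0.15 log2. No called microRNA changed sign. Over the single microRNAs and settings 164 values lost a call, 36 gained one and 1934 kept their side. The low totals of IL-33 ILC2 library 2 limit what a count of 0 shows there. The totals without miR-21a-5p and the left-out Th2 libraries were chosen after seeing the data, and the cause of these changes was not tested.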
